A study of Mus musculus with 6 samples.

Results

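Autotaxin, encoded by Enpp2, was followed here together with the Enpp ectoenzymes related to it and with the receptors for lysophosphatidic acid (LPA), the lipid that autotaxin makes. The 9 members were taken by gene symbol from the FPKM table of the choroid plexus (ChP) and are 5 Enpp genes (Enpp1, Enpp2, Enpp3, Enpp4 and Enpp5) and 4 LPA receptor genes (Lpar1, Lpar2, Lpar4 and Lpar6) of 24354 gene names in all. FPKM scales the fragments of a gene by the length of its transcripts and the depth of the library, so that levels can be set side by side between genes. All 9 are in the table.

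The libraries came from translating ribosome affinity purification (TRAP), in which ribosomes with a tagged subunit are pulled down with the mRNA they carry. All mice were FoxJ1:cre x bacTRAP (EGFP:L10a), at both ages, so that Cre under the Foxj1 promoter switched on the tag in cells that use this promoter, which in the ChP are its epithelial cells. There were 3 adult samples, aged 60 days by the labels, and 3 samples of embryonic day 16.5 (E16.5), with no other treatment. By the study's methods the tissue was lateral ventricle ChP and each sample was pooled from several adult mice or from 3 litters of embryos, whereas the text of the series counts 3 mice at each age.

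Autotaxin is a secreted lysophospholipase D that cuts choline from lysophosphatidylcholine and leaves LPA. LPA acts on G protein-coupled receptors, of which Lpar1 and Lpar2 belong to one structural family and Lpar4 and Lpar6 to another. The signal is ended by lipid phosphate phosphatases, which remove the phosphate, or by acyltransferases, which turn LPA into phosphatidic acid. The other Enpp enzymes mostly act on nucleotides outside the cell. Enpp1 makes pyrophosphate from ATP. ChP epithelium is a known source of autotaxin in the brain, as are oligodendrocytes.

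Low FPKM values rise in steps of 1 read, and the depth of each library was taken from them. By these steps the adult libraries had the value of 1 read on 1 kb at 0.257, 0.114 and 0.322 FPKM (replicates 1, 2 and 3) and the E16.5 libraries at 0.0807, 0.0636 and 0.0687 FPKM. Adult replicate 3 was the shallowest. Replicate 1 exceeded it in depth 1.25 times, replicate 2 did so 2.83 times, and embryonic libraries 3.98 to 5.06 times. Of 11601 genes tested (mean FPKM above 1 over the 6 samples), 10.3% to 36.4% were listed at 0 in an adult library and 3.68% to 4.02% in an E16.5 library. A listed 0 can be a failed estimate as well as an absence of reads. Ttr, the thyroid hormone carrier that defines ChP epithelium, was listed at 0 in all E16.5 samples, and of 76 cytosolic ribosomal protein genes 24 to 46 were listed at 0 in an adult library and 9 to 13 in an E16.5 library. The other 13 of 14 epithelial markers were above 0 in all 6 libraries. Foxj1, whose promoter drove Cre, had 48.7 ± 12.5 FPKM in adult ChP and 187 ± 28.3 FPKM in embryonic ChP (SD, n = 3 samples each). Over the genes tested, log2(FPKM + 1) correlated between adult libraries with r = 0.615 to 0.733. Between E16.5 libraries r was 0.825 to 0.841, and between libraries of different ages 0.490 to 0.659. Adult libraries thus resembled each other less than E16.5 libraries did.

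Enpp2 was the member with the highest level at both ages, and it was far higher in adult ChP. It lies on chromosome 15 from 54838901 to 54952892 on the minus strand (mm10, GENCODE M21). Its level in the adult was 14886 FPKM (replicate 1), 18732 FPKM (replicate 2) and 16409 FPKM (replicate 3). In the embryo it was 242 FPKM (replicate 1), 303 FPKM (replicate 2) and 274 FPKM (replicate 3). Every adult sample thus stood above every E16.5 sample, with none between, an order that held for 7.39% of all genes tested. The means were 16676 ± 1937 FPKM in adult ChP and 273 ± 30.5 FPKM in embryonic ChP (SD, n = 3 each), a 61.1-fold difference. On the log2(FPKM + 1) scale the change, adult minus E16.5, was 5.93 (standard error 0.22, 95% interval 5.42 to 6.44, limma adjusted p = 4.48e-05 over all genes tested). Of the genes tested, Ttr alone had a smaller adjusted p, which rests on its listed zeros. By limma, the share of genes tested that was called was 2.12% for higher in adult and 8.83% for higher at E16.5. The median log2 change over all genes tested was -0.86, and relative to that median the change of Enpp2 was 6.78. An exact permutation test of Enpp2 alone gave p = 0.1 (two-sided), the smallest that 3 samples against 3 allow.

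**Figure D1:**
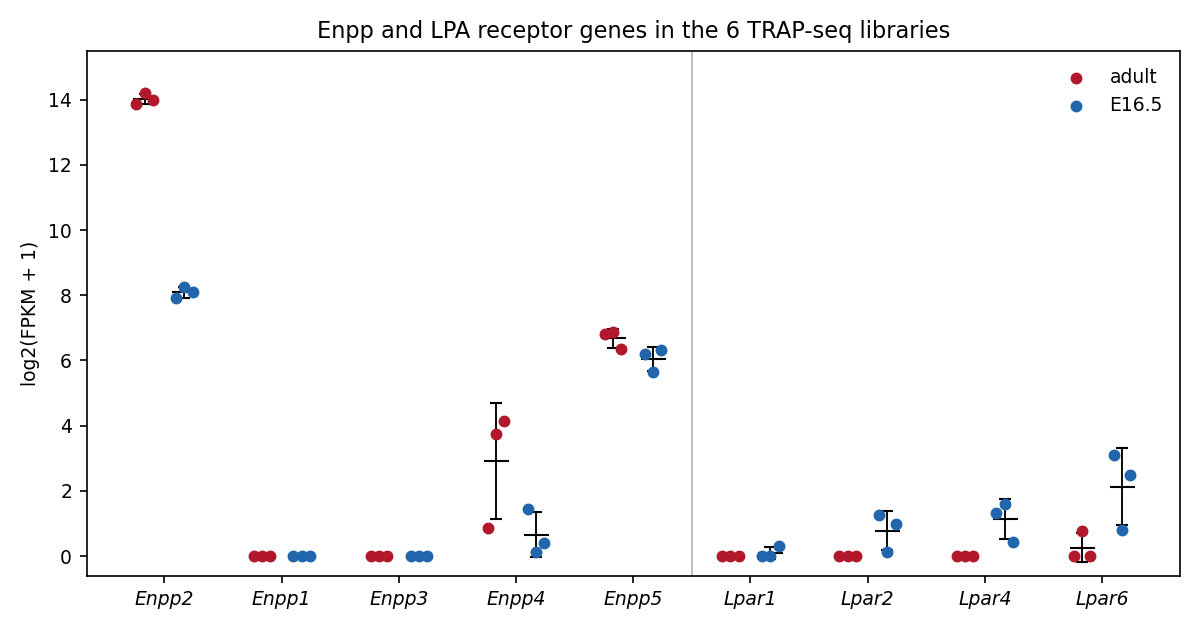
Levels of the 9 members in each library as log2(FPKM + 1), with adult samples in red and E16.5 samples in blue. The horizontal dash is the mean and the bar 1 SD over 3 samples. Enpp2 stands between 14886 and 18732 FPKM in adult ChP and between 242 and 303 FPKM at E16.5, and the LPA receptors lie at or near 0 in adult.

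Within each library, which needs no scaling between samples, Enpp2 also changed its place. Among protein-coding genes (20473 of the symbols, by RefSeq) it held rank 2 in each adult library, behind Ttr alone. At E16.5 its rank was 213, 161 and 153 in replicates 1, 2 and 3. It took 5.75%, 5.58% and 5.36% of the summed FPKM of protein-coding genes in the adult libraries, against 0.0624%, 0.0788% and 0.0778% in the E16.5 libraries. Its level in adult was 71.2%, 59.8% and 55.2% of that of Ttr in replicates 1, 2 and 3. No such ratio can be given at E16.5, where Ttr is listed at 0.

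The spread of Enpp2 between samples was small at both ages. Its coefficient of variation was 11.6% over adult samples and 11.2% over embryonic samples. The SD of log2(FPKM + 1) was 0.17 in adult and 0.16 at E16.5, where the medians over the genes tested were 0.98 and 0.45. Of the genes tested, 10.6% had a smaller SD in adult and 12.4% at E16.5. The genes tested include many of low level or listed at 0 in some libraries, and Enpp2 was not compared with genes of like level. At the length of the longest of its 9 annotated transcripts, the FPKM of Enpp2 stood for roughly 147701 to 477231 reads in an adult library and 8677 to 13793 reads in an E16.5 library. Read numbers here are estimates from the steps, and limits set from them cover counting error only.

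Enpp2 is also a gene of oligodendrocytes, so the markers of that lineage were set beside it. Of 12 such markers, 6 were listed at 0 in all adult samples and 1 in all samples of both ages. Their summed level was 3.98, 13.5 and 78.9 FPKM across adult replicates 1, 2 and 3, compared with 48.5 to 52.1 FPKM at E16.5. Among its defining markers, Mag and Olig2 were listed at 0 in every adult sample, Mog reached 0.225 FPKM in 1 adult sample, and Mbp had 58.7 FPKM in adult replicate 3. Enpp2 had 14886 FPKM in adult replicate 1, where this sum was lowest, and 16409 FPKM in adult replicate 3, where it was highest. Without adult replicate 3 the log2 change of Enpp2 was 5.94 (limma adjusted p = 0.000263). The part of oligodendrocytes in the Enpp2 values was not tested. A long noncoding gene, Gm26684, overlaps the 5′ end of Enpp2 on the opposite strand and is not in the table under this name, and whether the FPKM were made with regard to strand is not given in the sources used here.

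The genes whose pattern over the 6 samples was most like that of Enpp2 were Ttr (Pearson's r of log2(FPKM + 1) = 0.999), Scd2 (0.999), Rnf152 (0.998), Kl (0.997) and Slc4a10 (0.997). The value for Ttr rests on its 3 listed zeros at E16.5, which may be failed estimates. These r values compare 11598 genes over 6 libraries that fall into 2 ages, so any gene that separates the ages with little spread scores high, and 31 genes had an r above 0.99. Scd2, a fatty acid desaturase, had 233 to 268 FPKM in adult ChP and 74.1 to 76.6 FPKM at E16.5. Kl, the anti-ageing protein Klotho, had 503 to 628 FPKM in adult ChP and 6.03 to 8.94 FPKM at E16.5. Slc4a10, a sodium and bicarbonate transporter of ChP epithelium, had 263 to 282 FPKM in adult ChP and 19.4 to 27.7 FPKM at E16.5. Rnf152, a ubiquitin ligase, had 24.3 to 24.9 FPKM in adult ChP and 2.62 to 3.69 FPKM at E16.5.

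Enpp5 and Enpp4, membrane-bound relatives of autotaxin, were the other Enpp genes above 0. Enpp5 (chromosome 17, 44078813 to 44086567, plus strand) had 111, 117 and 80.3 FPKM across adult replicates 1, 2 and 3, compared with 73.2, 48.6 and 78.7 FPKM at E16.5. The lowest adult value thus stood just above the highest E16.5 value. An order of this kind, adult samples all above, held for 7.39% of all genes tested, and 38.4% had no overlap in one direction or the other. The log2 change of Enpp5 was 0.62 (standard error 0.32, 95% interval -0.12 to 1.36), which did not pass the test (limma adjusted p = 0.222). Its sign depended on scaling, since rescaling each library to the same sum of FPKM gave -0.20, while median-ratio scaling gave 0.96 and quantile normalization 1.04. Relative to the median of all genes it was 1.03 to 1.54 under these 3 scalings and 1.48 as deposited. A single gene name, Mir6236, held 51.0%, 32.7% and 51.7% of the summed FPKM in adult replicates 1, 2 and 3. In E16.5 replicates 1, 2 and 3 it held 13.3%, 13.6% and 15.002%. Rescaling to the same sum without Mir6236 was not tested.

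The distance between Enpp2 and Enpp5 was measured within libraries. Enpp2 exceeded Enpp5 by 135, 160 and 204 times in adult replicates 1, 2 and 3, and by 3.31, 6.24 and 3.48 times in E16.5 replicates 1, 2 and 3. The ratios of the 2 ages did not overlap, and their log2 means differed by 5.30 (exact permutation test, two-sided p = 0.1, the smallest possible). Of all FPKM on Enpp genes, Enpp2 held 99.3% to 99.4% in adult libraries and 76.4% to 86.2% in E16.5 libraries. The larger distance in adult came with the higher Enpp2 level, while Enpp5 stayed between 48.6 and 117 FPKM over all 6 samples.

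**Figure D2:**
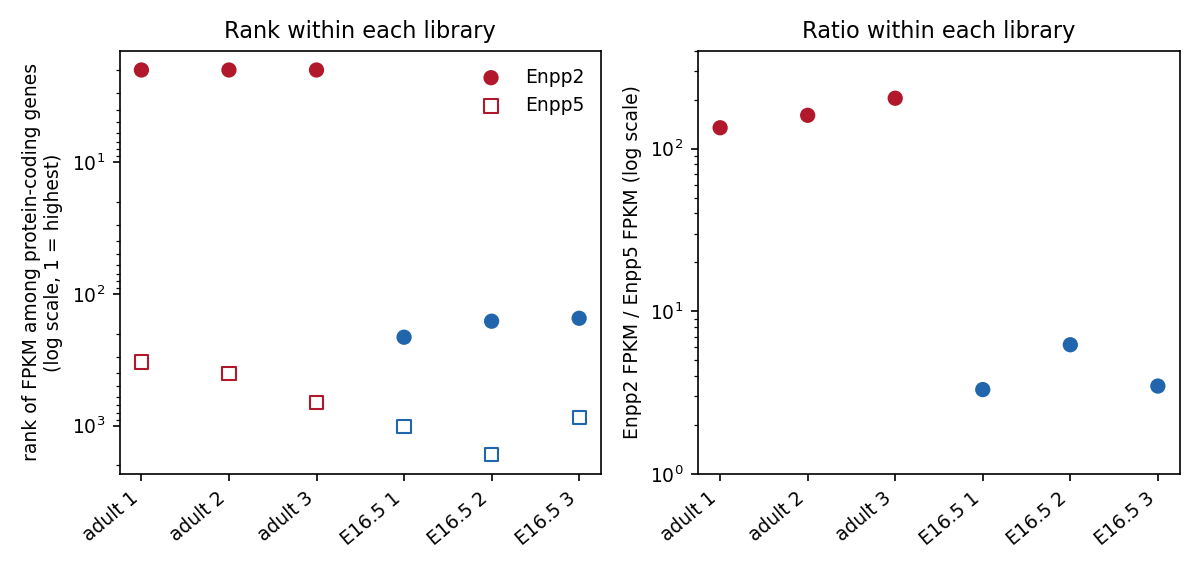
Left, rank of Enpp2 (filled circles) and Enpp5 (open squares) by FPKM among protein-coding genes of each library, on a log scale with the highest gene at the top. Right, ratio of Enpp2 to Enpp5 FPKM in each library, on a log scale. Adult libraries are red and E16.5 libraries blue. Enpp2 is at rank 2 in the 3 adult libraries, and the ratio is 135 to 204 in adult and 3.31 to 6.24 at E16.5.

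Enpp4 is a neighbour of Enpp5 in the genome (chromosome 17, 44096308 to 44105809, minus strand), with 9.74 kb and no other coding gene between the ends of these convergent genes. It splits diadenosine polyphosphates and ATP at the cell surface. Its level was 0.820, 12.3 and 16.6 FPKM across adult replicates 1, 2 and 3, compared with 1.70, 0.102 and 0.311 FPKM at E16.5. Adult replicate 1 rests on about 13.9 reads, E16.5 replicate 2 on about 6.96 and E16.5 replicate 3 on about 19.8. Adult replicates 2 and 3 were the highest samples, but adult replicate 1 lay below E16.5 replicate 1, so the ages overlapped. The log2 change was 2.26 (standard error 0.99, 95% interval -0.04 to 4.56, limma adjusted p = 0.166). It passed the test after quantile normalization alone (log2 change 3.00, adjusted p = 0.0433), and without adult replicate 1 the change was 3.28 (adjusted p = 0.0575). Of these neighbours, Enpp5 stood 4.85 to 135 times above Enpp4 in adult libraries and 43.0 to 479 times above it at E16.5.

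Enpp1 and Enpp3 were listed at 0 in all 6 libraries. Both lie on the minus strand of chromosome 10 (Enpp1 from 24637914 to 24712159, Enpp3 from 24772406 to 24842823), 60.2 kb apart. Enpp1 feeds pyrophosphate to the extracellular space and Enpp3 splits nucleotides and nucleotide sugars. If the zeros are counts of no read, they allow at most 3 reads, which is 0.0290 to 0.147 FPKM of Enpp1 and 0.0471 to 0.238 FPKM of Enpp3 over the 6 libraries, with the longest annotated transcript as the length. Enpp6 and Enpp7, relatives outside the list, were listed at 0 in all libraries too.

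LPA receptor genes had low values at E16.5 and were mostly listed at 0 in adult. Lpar1, Lpar2 and Lpar4 were listed at 0 in all 3 adult samples, and Lpar6 in 2 of them. Of all genes tested, 10.3% to 36.4% were listed at 0 in an adult library, and the adult libraries were the shallower ones. The share of genes of like level that were listed at 0 in all 3 adult samples was not measured. All 4 receptors together had 10.5, 2.88 and 6.15 FPKM for E16.5 replicates 1 to 3, against 0, 0.697 and 0 FPKM for adult replicates 1 to 3. Lpar3 and Lpar5, LPA receptor genes outside the list, were listed at 0 in all libraries. Enpp2 thus exceeded the summed receptors 23.0 to 105 times at E16.5 and 26888 times in adult replicate 2, the one adult library with a receptor above 0. In these bulk samples, fewer cells of a type and less RNA per cell cannot be told apart.

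Lpar6 was the receptor with the highest mean FPKM and the only one of the 4 to reach the filter, although Lpar4 stood above it in E16.5 replicate 2. It had 7.63, 0.753 and 4.58 FPKM for E16.5 replicates 1 to 3, against 0, 0.697 and 0 FPKM for adult replicates 1 to 3. E16.5 replicate 2 stood just above adult replicate 2, and the other E16.5 samples well above it. The same order, adult samples all below, held for 31.0% of all genes tested. The log2 change was -1.88 (standard error 0.75, 95% interval -3.64 to -0.12), which is -1.02 relative to the median of all genes and did not pass the test (limma adjusted p = 0.140). After quantile normalization it was -0.53 (adjusted p = 0.622). Lpar6 has a single annotated transcript of 5400 bases, and its FPKM stood for about 61.6 to 492 reads at E16.5 and 31.9 reads in adult replicate 2. A count of 0 would allow up to 0.148 FPKM in adult replicate 1 and 0.186 FPKM in adult replicate 3.

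Lpar6 (chromosome 14, 73237895 to 73243294, plus strand) lies inside Rb1, the retinoblastoma gene, which is transcribed from the other strand and whose annotated exons overlap it. Rb1 had 0.577, 4.66 and 0 FPKM across adult replicates 1, 2 and 3, compared with 10.7, 11.4 and 4.26 FPKM at E16.5. Adult replicate 2 was thus the adult library with the most FPKM of both genes, and also the deepest adult library. At E16.5 the highest Rb1 value fell on the library with the lowest Lpar6 value. The part of Rb1 reads in the Lpar6 values was not tested.

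Lpar4, a receptor of the same family as Lpar6 (chromosome X, 106920625 to 106933900), had 1.52, 2.05 and 0.353 FPKM at E16.5, or about 76.0, 130 and 20.7 reads. All 3 adult values were listed at 0. A count of 0 would allow 0.0844 to 0.239 FPKM in the adult libraries, below the lowest E16.5 value. Lpar4 did not reach the filter, and an exact permutation test of its log2(FPKM + 1) gave p = 0.1 (two-sided), the smallest possible. Lpar2 (chromosome 8, 69822429 to 69831102) had 1.39, 0.0804 and 0.974 FPKM at E16.5. Its value in E16.5 replicate 2, about 7.08 reads, lies below the 0.138 and 0.172 FPKM that a count of 0 allows in adult replicates 1 and 3 and above the 0.0609 FPKM that it allows in adult replicate 2, the deepest adult library. Lpar1 (chromosome 4, 58435255 to 58553898), the receptor best known from oligodendrocytes, was above 0 in E16.5 replicate 3 alone, with 0.245 FPKM or about 11.9 reads. A count of 0 would allow 0.230, 0.102 and 0.289 FPKM in adult replicates 1, 2 and 3, so that this value lies above the first 2 of these limits and below the third.

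By level, the order in adult ChP was Enpp2, Enpp5, Enpp4, Lpar6 and then the genes listed at 0. Of neighbours in this order, Enpp2 and Enpp5 did not overlap, nor did Enpp5 and Enpp4, while the lowest Enpp4 value (0.820 FPKM) stood just above the highest Lpar6 value (0.697 FPKM). At E16.5 Enpp2 and Enpp5 came first and did not overlap each other or any other member. Lpar6, Lpar4, Lpar2 and Enpp4 followed with overlapping ranges, and Lpar1 came last of the genes above 0.

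Markers of other cell types were set beside the receptors, whose own sum was 2.88 to 10.5 FPKM at E16.5. The 10 endothelial markers summed to 0.489 to 27.2 FPKM in adult ChP and 12.7 to 40.9 FPKM at E16.5, with 4 of them at 0 in all adult samples and 3 in all E16.5 samples. The 9 mural markers summed to 4.85 to 13.2 and 6.58 to 10.2 FPKM, with 3 and 2 at 0 throughout an age. The 10 macrophage markers summed to 0.0695 to 6.82 and 0.584 to 8.42 FPKM, with 7 and 5 at 0. Pdgfra, which stands in both the mesenchymal and the oligodendrocyte list, had 27.7 ± 8.42 FPKM in embryonic ChP and fell to 3.68 ± 1.96 FPKM in adult ChP (SD, n = 3 per age, limma log2 change -2.65, adjusted p = 0.0296). The whole list of 10, most of whose FPKM were Igf2, summed to 724 to 986 FPKM in adult ChP and 548 to 661 FPKM at E16.5, with 4 and 1 at 0. Motile cilia markers were also lower in adult, with sums of 280 to 447 against 1082 to 1268 FPKM, and with 2 and 1 of 10 at 0. Of 8 tested, 5 were called higher at E16.5, against 8.83% of all genes tested. The other lists summed to 0 to 6.49 FPKM in adult ChP and 54.1 to 324 FPKM at E16.5 for red blood cells, 2.25 to 4.95 and 5.75 to 102 FPKM for neurons and neural progenitors, and 4.07 to 20.5 and 21.4 to 48.8 FPKM for the cell cycle. E16.5 replicate 1, with the highest Lpar6 and Lpar2 values, was the library with 324 FPKM of red blood cell and 102 FPKM of neuronal markers, while E16.5 replicate 2, with the lowest Lpar6 and Lpar2 values, had 54.1 and 5.75 FPKM. Lpar4 was highest in E16.5 replicate 2 (2.05 FPKM). E16.5 replicate 3 had 108 FPKM of red blood cell and 6.86 FPKM of neuronal markers, with 4.58 FPKM of Lpar6 and 0.974 FPKM of Lpar2. The part of these cells in the receptor values was not tested.

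**Figure D3:**
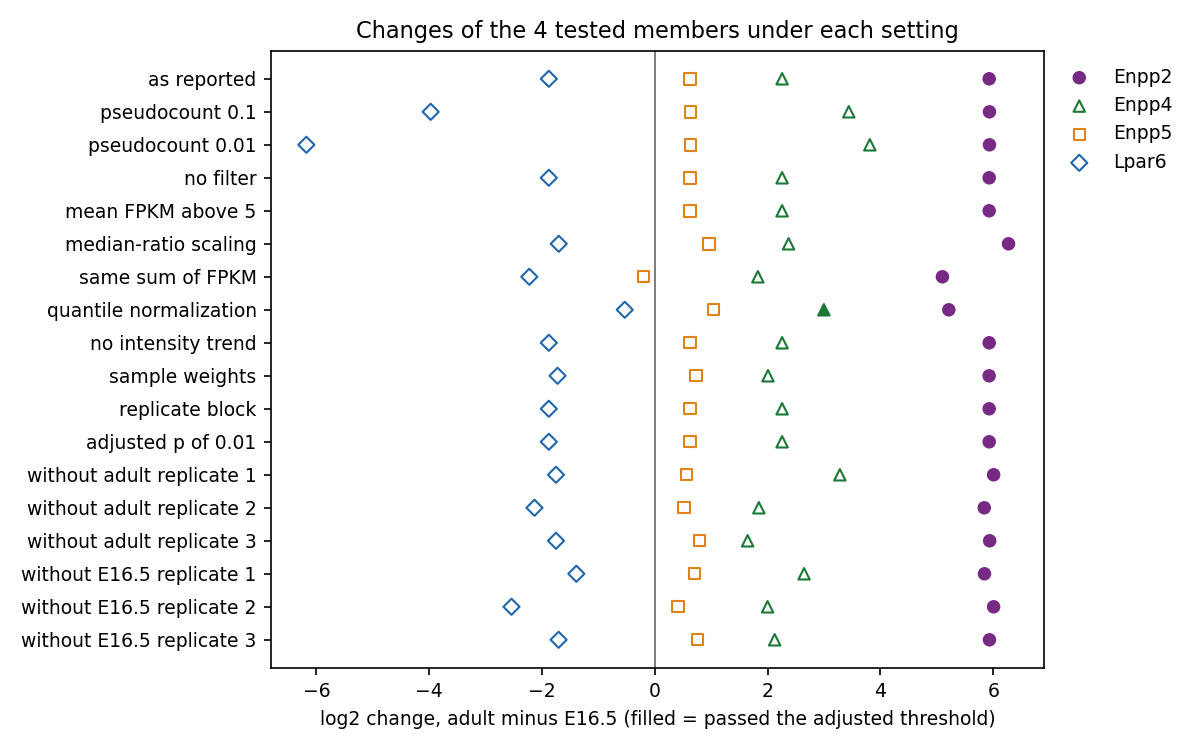
Log2 change (adult minus E16.5) of the 4 tested members as reported and under each of 17 other settings, with filled symbols where the adjusted p passed the threshold. Enpp2 lies between 5.10 and 6.27 and is filled throughout, Enpp4 is filled after quantile normalization only, Enpp5 turns to -0.20 when libraries are rescaled to the same sum, and Lpar6 has no value at a mean FPKM above 5.

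Genes that make, break or relay LPA, and genes related to these, were described by lists. The lists held 109 genes outside the member list, with YAP and SRF targets, sphingosine 1-phosphate genes and extracellular nucleotide and phosphate genes included. Enpp6, Enpp7, Lpar3 and Lpar5 were counted too. Of the 109 genes, 71 were tested, 4 passed the test with the higher level in adult and 3 with the higher level at E16.5. Over all genes tested the called shares were 2.12% and 8.83%. By limma, 3626 of the 11601 genes tested had an unadjusted p under 0.05, counting both directions. Each of the 7 calls was lost when any 1 of the E16.5 replicates was left out, where the calls over all genes came to 27 to 47 for adult and 16 to 65 for E16.5. Enpp2 kept its call there, with a limma adjusted p of 0.00259 to 0.00498.

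Breakdown of LPA showed no called gene. Of 10 genes for lipid phosphate phosphatases and lysophospholipases, 9 were tested and none was called in either direction by limma, and none had an unadjusted p under 0.05. The median log2 change was -0.47, or 0.39 above that of all genes. Ppap2a, a phosphatase now named Plpp1, had 16.6 ± 14.8 FPKM in adult ChP and overlapping E16.5 values of 6.56 to 22.4 FPKM. Ppap2b, now Plpp3, had 0.110 to 2.85 FPKM in the adult and 2.71 to 4.49 FPKM in embryos. The 13 acyltransferases listed for LPA and other lysophospholipids, 11 of them tested, also had no called gene (1 higher in adult without adjustment). The most abundant, Agpat1, had 52.7 ± 10.1 FPKM in adult ChP and 30.5 ± 4.38 FPKM at E16.5 (log2 change 0.76, limma adjusted p = 0.166).

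Among other enzymes of LPA and lysophosphatidylcholine supply, 11 of 18 genes were tested, 1 was called with the higher level in adult and 0 with the higher level at E16.5. The list had a median log2 change of -0.33. Without adjustment the counts were 2 and 2. Gde1, a glycerophosphodiesterase that acts on glycerophospho compounds, rose from 8.59, 23.3 and 51.4 FPKM in E16.5 replicates 1, 2 and 3 to 118, 115 and 211 FPKM in the adult. All adult values stood above all E16.5 values, as for 7.39% of all genes tested (log2 change 2.63, standard error 0.62, limma adjusted p = 0.0384). This call was lost in 13 of 17 alternatives, with an adjusted p of 0.0212 to 0.122 over all 17. Gdpd1, a relative with lysophospholipase D activity, had 16.8 ± 5.08 FPKM at E16.5 and 4.07 ± 4.40 FPKM in adult (log2 change -2.20, limma adjusted p = 0.113). At E16.5 it thus lay well below Enpp2, whose lowest value there was 242 FPKM.

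G proteins and their effectors carry the signal inside the cell. Of 19 genes, 17 were tested, 1 was called, toward adult (1 toward adult and 2 toward E16.5 without adjustment). The median log2 change was -0.29. Arhgef12, an exchange factor that links G12 and G13 proteins to RhoA, had 196, 155 and 168 FPKM across adult replicates 1, 2 and 3, compared with 64.6, 90.6 and 85.0 FPKM at E16.5. The ages did not overlap, with adult above as for 7.39% of all genes tested. Arhgef12 changed by 1.11 on the log2 scale (standard error 0.27, limma adjusted p = 0.0414). After rescaling to the same sum it was 0.29 (adjusted p = 0.522), and over all alternatives the adjusted p was 0.0188 to 0.522. Gnas, the stimulatory G protein and the most abundant of the list, had 936 ± 195 FPKM in adult ChP and 1159 ± 155 FPKM in embryonic ChP (SD, n = 3 each, log2 change -0.32, limma adjusted p = 0.397). Rhoa, the GTPase that Arhgef12 activates, had 42.3, 40.6 and 106 FPKM in adult ChP and 110, 84.7 and 90.1 FPKM at E16.5, with overlap.

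The list of YAP and SRF target genes, which respond to LPA in many cells, had 9 of 13 genes tested, of which 3 passed the test, all toward E16.5. Over all genes tested, 8.83% were called in that direction. The list had a median log2 change of -1.46, which was -0.60 against the median of all genes. This median is the change of Cyr61, which passed the filter through its E16.5 values, as did Ctgf and Myl9. The adult means of Cyr61, Ctgf and Myl9 were 0.466, 0.325 and 0.171 FPKM. No tested gene of the list had an E16.5 mean below the filter. How far the filter moved the median was not tested. Amotl2, a scaffold that restrains YAP, had 6.33, 5.57 and 1.15 FPKM in adult ChP and 39.5, 43.8 and 46.5 FPKM at E16.5 (log2 change -3.23, limma adjusted p = 0.0203). Myl9, a myosin light chain of contractile cells, was at 0, 0.513 and 0 FPKM in adult ChP and 34.8, 20.1 and 11.2 FPKM at E16.5 (log2 change -4.19, limma adjusted p = 0.0141). Actb, cytoplasmic actin, fell from 1730 ± 126 to 813 ± 234 FPKM (SD, n = 3 each, log2 change -1.12, limma adjusted p = 0.0368). Relative to the median of all genes the change of Actb was -0.27, and this ran from -0.63 to 0.35 over the alternatives. Its call was lost in 11 of 17 alternatives, and under quantile normalization, which left a median of all genes at 0.01, its change was -0.62 (adjusted p = 0.140). Cyr61 and Ctgf, the secreted proteins most used as YAP readouts, did not pass the test and had 0 to 1.40 FPKM in adult ChP and 0.316 to 7.49 FPKM at E16.5.

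The list closest to the nucleotide side of the Enpp family held 20 genes for extracellular nucleotides, pyrophosphate and phosphate. Of 9 tested, 2 were called, both toward adult (5 and 0 without adjustment). Among all genes tested, 2.12% were called toward adult, and 3626 of 11601 had an unadjusted limma p under 0.05 in either direction. The median log2 change of the list was 2.06, or 2.92 above that of all genes. The filter takes the mean over both ages, so that a gene can enter through the age where it is high. Ank, Slc29a1 and Adora1 entered through adult, with E16.5 means of 0.311, 0.515 and 0.670 FPKM. No tested gene of the list had an adult mean below the filter. How far the filter moved the median was not tested. Ank, which exports pyrophosphate and ATP, had 11.7, 8.80 and 26.6 FPKM across adult replicates 1, 2 and 3, compared with 0.508, 0.0959 and 0.329 FPKM at E16.5 (log2 change 3.54, standard error 0.68, limma adjusted p = 0.0233). Slc20a2, a sodium-dependent phosphate importer, had 51.0, 56.7 and 36.4 FPKM in adult ChP and 5.10, 8.57 and 8.14 FPKM at E16.5 (log2 change 2.57, standard error 0.43, limma adjusted p = 0.0149). In both genes every adult sample was above every E16.5 sample, an order that held for 7.39% of all genes tested. These values stood beside an Enpp1 listed at 0 in all 6 libraries.

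**Figure D4:**
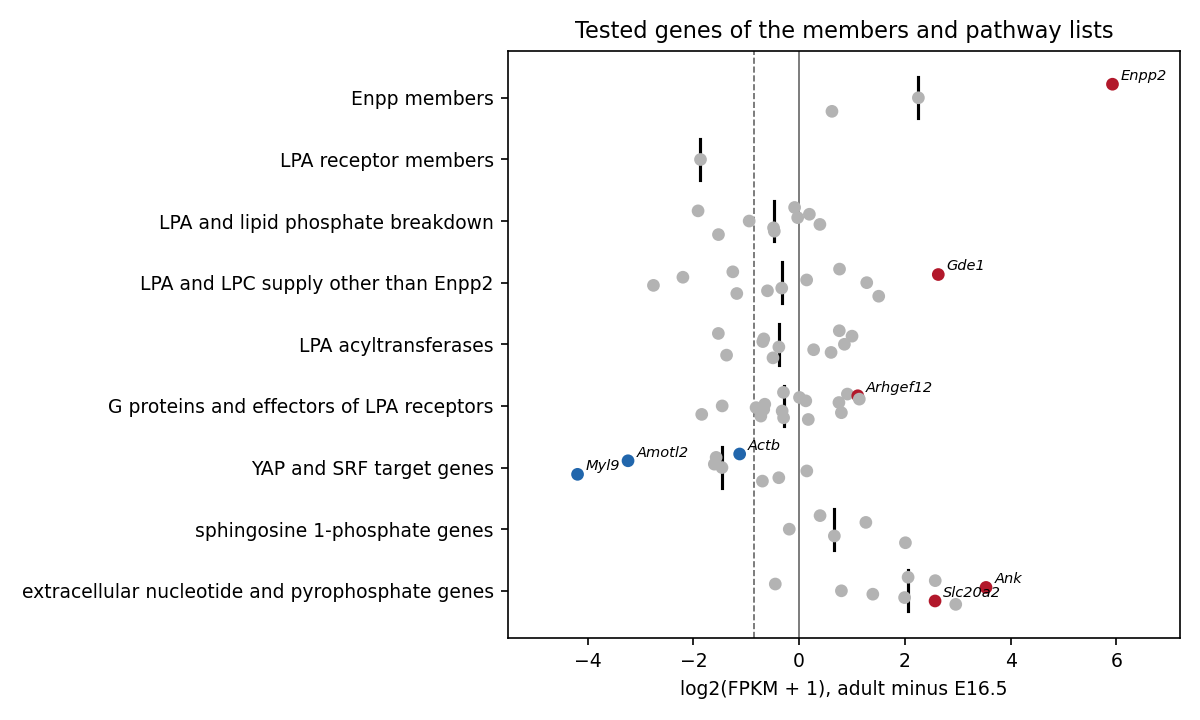
Log2 change (adult minus E16.5) of each tested gene, by list, with genes called higher in adult in red, genes called higher at E16.5 in blue and the others in grey. Black ticks are list medians, the solid line is 0 and the dashed line is the median of all genes tested (-0.86). Enpp2 at 5.93 lies farthest from 0 of the genes shown.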

How the data were processed

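TRAP RNA of ChP was sequenced by the study in 3 adult and 3 E16.5 samples. The authors deposited 1 table of FPKM per gene, made with STAR 2.4.0 and Cufflinks on mm10 according to the submitters' processing notes and the study's methods. The annotation and any use of strand are not given in the sources used here. The 11601 genes with a mean FPKM above 1 entered limma 3.58.1 as log2(FPKM + 1) (R 4.3.3, with an intensity trend), and p-values were adjusted by Benjamini-Hochberg over all genes tested, with a threshold of 0.05. Fold changes on this scale understate those of low genes. The filter can admit a gene through the age where it is high, a limit on the calls and on the list medians. The p-values measure the spread between these samples. The script was tested on simulated data.

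The study's own test needs counts, so it was not repeated. Depth was estimated from single-read steps in genes with 1 transcript, of whose low values 64.6% to 81.2% lay within 0.1 read of a whole number. The step was the one that best placed these same values on whole numbers, so this share is in part a product of the fit. It rests on 43 to 65 values per library. Too few values came out whole to recover counts. Read equivalents used the longest GENCODE M21 transcript less 200 bases, and limits stand for 3 reads.

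The members and lists were chosen with earlier results of these data known. All members were named, with up to 3 called genes per list and direction by adjusted p, the 5 genes most like Enpp2 by Pearson's r, and the 2 most abundant genes of a marker list. Other genes of the lists were named after their values were seen. Alternatives changed the pseudocount (0.1, 0.01), the filter (none, mean above 5), scaling, variance model, threshold (0.01) and replicates.

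Items withheld from the text are not reported here.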

Additional observations from a re-analysis of the deposited data

How the results depend on the processing

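Enpp2 was called higher in adult under all 17 alternatives, with a log2 change of 5.10 to 6.27 and an adjusted p of 6.25e-06 to 0.00498. No LPA receptor was called in either direction, and no Enpp gene higher at E16.5, under any of them. Enpp genes called higher in adult numbered 1, or 2 after quantile normalization, which added Enpp4 (3.00, adjusted p = 0.0433). Enpp5 turned to -0.20 when libraries were rescaled to the same sum of FPKM (adjusted p = 0.724). Lpar6 was not tested at a mean FPKM above 5, and in the other 16 alternatives its change was -6.18 to -0.53.

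Counts of called genes moved more. Against 1024 genes higher at E16.5 and 246 higher in adult, rescaling to the same sum gave 3254 and 120, quantile normalization 504 and 569, and a threshold of 0.01 gave 132 and 56. Median-ratio scaling gave 660 higher at E16.5, and dropping the intensity trend 158 higher in adult. Leaving out 1 replicate gave 16 to 1704 and 27 to 357, with the lowest counts without E16.5 replicate 2. In the pathway lists, against 3 higher at E16.5 and 4 higher in adult, the same sum gave 9 and 2, a threshold of 0.01 gave 0 and 0, and leaving out 1 replicate gave 0 to 6 and 0 to 3. Quantile normalization gave 8 higher in adult and no intensity trend 2. The scalings moved the median change of all genes from -0.86 to -1.47 (same sum), -0.57 (median ratio) and 0.01 (quantile). The sum used for the same-sum scaling includes Mir6236, with 32.7% to 51.7% of it in adult libraries and 13.3% to 15.002% in E16.5 libraries. The part of Mir6236 in the same-sum results was not tested, nor was the cause of the other moves.

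Samples with the same replicate number did not deviate together (r = 0.00089, 0.0439 and 0.0150 for numbers 1, 2 and 3), so the numbers were taken as names. With the replicate number as a block, 452 genes were higher at E16.5 and 112 in adult, 2 pathway genes were higher in adult, and Enpp2 had an adjusted p of 0.000183. Adult replicates 2 and 3 correlated best with their own number and adult replicate 1 did not.

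In the shallowest adult library 3 reads stood for 0.172 to 0.289 FPKM of a receptor gene.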

Other observations

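Genes of sphingosine 1-phosphate, the other lysophospholipid signal with receptors related to those of LPA, were set beside them. Of 12 such genes, 5 were tested and 0 were called in either direction by limma, with 0 at an unadjusted p under 0.05. The median log2 change was 0.67, against -0.86 over all genes tested. S1pr4, S1pr5 and the kinase gene Sphk1 were listed at 0 in all 6 libraries, and S1pr1 reached 0.0223 FPKM in 1 E16.5 library. S1pr3 had 0.670, 1.22 and 0.602 FPKM in E16.5 replicates 1, 2 and 3 and was listed at 0 in adult. Sphk2, the other kinase that makes the lipid, had 10.3 to 16.95 FPKM in adult and 4.11 to 11.6 FPKM at E16.5, with overlap. Sgpl1, the lyase that breaks it down, had 39.2, 17.3 and 10.6 FPKM in adult and 10.9, 8.54 and 4.44 FPKM at E16.5, with the lowest adult value just below the highest E16.5 value. Spns2, its exporter, had 37.4 FPKM in adult replicate 3, 0.708 FPKM in adult replicate 2 and was listed at 0 in the other 4 libraries.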
